A study of Arabidopsis thaliana with 48 samples.

Results

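Abscisic acid (ABA) is the plant hormone best known from drought, but well-watered plants contain it too. Such plants of wild type and of aba1-6, a mutant of ABA1, were compared here. ABA1 encodes zeaxanthin epoxidase, the enzyme that feeds the xanthophyll precursors of ABA. The comparison sets 8 libraries of aba1-6 under normal watering against 8 libraries of wild type under normal watering, all of the Columbia ecotype. These are 16 of the 48 libraries of a study of Arabidopsis thaliana whose title presents GIGANTEA as a repressor of ABA responses. They were chosen by the genotype, watering and time in their labels, and no measured value entered the choice. The other 32 libraries are gi-2, a mutant of GIGANTEA, under normal watering, and all 3 genotypes under drought.

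In both genotypes plants were 3 weeks old and had grown in short days of 8 h light. Soil was kept at a relative water content of 80 to 90%, against 30% under drought. Each genotype was harvested at 4 zeitgeber times, ZT1, ZT8, ZT12 and ZT16, where the number counts hours from lights on, with 2 libraries at each time. The harvests at ZT1 and ZT8 fell in a short day, and those at ZT12 and ZT16 in an extension of the light from ZT8 on. A library holds poly(A) RNA of the parts above the hypocotyl, from about 50 seedlings pooled over 3 pots, so it averages over plants, organs and cell types. In such material fewer cells of a type and less RNA per cell cannot be told apart. The mutant is 1 allele, and ABA itself was not measured in the data used here. A shortage of ABA and one of its xanthophyll precursors cannot be told apart in this comparison.

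ABA binds soluble receptors of the PYR/PYL family, and the complex holds back the clade A protein phosphatases 2C (PP2Cs). The phosphatases otherwise keep SnRK2 kinases inactive. Freed kinases phosphorylate transcription factors of the ABF group, which bind ACGT-containing promoter elements and raise genes for protective proteins. They also act on guard cell channels, through which ABA closes stomata.

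Total counts ranged from 4590200 to 23667341 in the aba1-6 libraries and from 1920012 to 18982267 in the wild-type libraries. Time of harvest separated the 16 libraries most, with 99.5% of the variance of the first principal component and 94.1% of that of the second. Genotype held 51.5% of the variance of the third component and 39.6% of that of the fourth. On the third component the shallowest library, wild type at ZT12, replicate 1, stood apart. Levels below are in CPM, counts scaled to a common library size with normalized library totals. Unless a time is named, a log2 fold change is the mean over the 4 times of aba1-6 over wild type, with its standard error (SE). A gene was called where edgeR's adjusted p lay under 0.05. Same-numbered wild-type libraries deviated together across times, with correlations of 0.193 to 0.262, so p-values of such means may be too small. With the replicate number as a random block within genotype and watering, limma called 2172 genes, and 66.2% of the calls given below were among them.

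In aba1-6, 1455 genes were higher and 1776 lower than in wild type, which are 7.64% and 9.33% of the 19037 genes tested and 17% together. Of the calls 45% were thus higher in aba1-6, against 66.9% where library totals were the only scaling, which gave all genes a median of 0.07 on the log2 scale in place of 0.01. Most of these differences were small: the median log2 fold change was 0.39 among the genes that rose and -0.39 among those that fell. Changes of at least 2-fold in the log2 mean were found for 194 of the genes that rose and 230 of those that fell. By the ratio of the mean levels of 8 libraries each, 400 called genes (2.1%) were at least 2-fold apart. Both aba1-6 libraries lay above both wild-type libraries at all 4 times for 491 genes (2.58%), of which 463 were called higher, and below them for 462 genes (2.43%), of which 451 were called lower. Counts of called genes in the lists below stand against the 17% called over all genes tested.

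ABA1 kept its transcript in its own mutant. It lay on chromosome 5 at 26753469 to 26757402 (TAIR10.1, as are all positions below). Its level ran from 68.8 CPM through a median of 102.5 to 611 CPM in aba1-6, against 75, 123 and 753 CPM in wild type. The groups overlapped, and the log2 fold change of -0.25 ± 0.09 SE did not pass (edgeR adjusted p = 0.0602), so the transcript does not check the genotype labels. It passed in 6 other fits, among them that of the 16 libraries alone (edgeR adjusted p = 0.00789) and DESeq2 (adjusted p = 0.0404), on the same side.

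Downstream of ABA1, transcripts of several steps of ABA synthesis were more abundant in aba1-6. Of 9 tested genes of the list, 5 were called higher and 0 lower, and the list's median was 0.22, against 0.01 over all genes tested. NCED5 and NCED3 encode 9-cis-epoxycarotenoid dioxygenases, which cleave epoxycarotenoids in the committed step. NCED5 (chromosome 1, 10571310 to 10573365) ran from 0.521 through a median of 2.55 to 3.77 CPM in aba1-6, against 0.357, 0.636 and 1.59 CPM in wild type. This was a log2 fold change of 1.48 ± 0.38 SE (edgeR adjusted p = 0.00496), on 244 counts in aba1-6 and 55 in wild type. ABA2, a dehydrogenase of the cytosolic steps, had 18.6, 20.3 and 29.4 CPM in aba1-6, against 12.4, 14.8 and 21.5 CPM in wild type, and rose by 0.48 ± 0.10 SE on the log2 scale. The aldehyde oxidase gene AAO2 (0.55) and ABA4 (0.22), which is needed for neoxanthin, rose as well. The calls of NCED3 and ABA4 were lost with the replicate as a random block (limma adjusted p = 0.0786 and 0.0769), which leaves 3 genes of the list. AAO3, the aldehyde oxidase of the last step, and ABA3, its cofactor sulfurase, had log2 fold changes of 0.08 and 0.04 that did not pass.

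Levels of NCED3 are given by time of harvest. At ZT1 its aba1-6 libraries had 5.73 and 3.99 CPM, against 8.62 and 7.62 CPM in wild type. At ZT8 they had 21.2 and 23.9 CPM, against 8.67 and 9.54 CPM in wild type. The mutant thus lay below wild type in the morning and above it at the other 3 times, and its mean log2 fold change was 0.61 ± 0.15 SE (edgeR adjusted p = 0.00422). The test of a difference between times did not pass (edgeR adjusted p = 0.0504), so a change with the hour was not shown. The call of the mean was lost in a fit of the 16 libraries with time as an additive block. Against 17% called over all genes tested, 2 of the 14 tested genes of carotenoid and xanthophyll synthesis were called higher and 2 lower. They are PSY, the phytoene synthase gene (0.22), NPQ1, the gene of violaxanthin de-epoxidase (0.29), and the beta-carotene hydroxylase genes BETA-OHASE_1 (-0.28) and BETA-OHASE_2 (-0.72). The calls of PSY and BETA-OHASE_2 were lost without any 1 of 8 and of 6 libraries (edgeR adjusted p up to 0.0999 for PSY, without aba1-6 at ZT1, replicate 2, and 0.293 for BETA-OHASE_2, without wild type at ZT12, replicate 2).

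Several genes that break down or release ABA were lower. Of the 13 tested genes of breakdown, conjugation and transport, 4 were called lower and 2 higher, against 17% called over all genes tested. The list's median was 0.13, on the same side as that of the synthesis list. CYP707A1, CYP707A2 and CYP707A4 encode ABA 8'-hydroxylases, which start the breakdown of ABA. CYP707A2 ran from 0 through a median of 0.45 to 0.781 CPM in aba1-6, against 1.78, 2.79 and 5.73 CPM in wild type. Every aba1-6 library lay below every wild-type library, and the log2 fold change was -2.79 ± 0.33 SE (edgeR adjusted p = 1.45e-08). CYP707A1 had 0.429, 2.14 and 5.52 CPM in aba1-6, against 5.80, 7.43 and 21.1 CPM in wild type, again with no overlap (-1.84 ± 0.27 SE). CYP707A4 fell by 1.77 on the log2 scale, while CYP707A3, the fourth hydroxylase gene, had a log2 fold change of -0.19 that did not pass.

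BGLU18 encodes a beta-glucosidase that frees ABA from its glucose ester. Its level ran from 130 CPM through a median of 268 to 919 CPM in aba1-6, against 655, 1245 and 2660 CPM in wild type (-1.89 ± 0.24 SE, edgeR adjusted p = 2.71e-06). The groups overlapped through 1 library: at ZT1 the aba1-6 libraries had 919 and 130 CPM. The transporter genes ABCG22 (AT5G06530, log2 fold change 0.46) and NRT1:2, also known as the ABA importer AIT1 (0.36), were called higher.

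Most receptor genes rose and most phosphatase genes fell. Of the 9 tested PYR/PYL genes, 7 were called higher and 0 lower, with a median of 0.63. PYL4 (chromosome 2, 16049918 to 16051356) ran from 29.7 through a median of 54.8 to 79.6 CPM in aba1-6, against 12, 25.2 and 27.2 CPM in wild type. Every aba1-6 library lay above every wild-type library, and the log2 fold change was 1.3 ± 0.15 SE (edgeR adjusted p = 2.24e-07). PYL8, listed as RCAR3, had 63.4, 70.2 and 88.2 CPM in aba1-6, against 35.2, 43.3 and 48.3 CPM in wild type, also without overlap (0.75 ± 0.07 SE).

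PYL6 was the receptor gene with the largest fold change but few counts, 260 in aba1-6 and 21 in wild type. Its level was 1.29, 2.67 and 5.52 CPM in aba1-6, against 0, 0.221 and 0.650 CPM in wild type (3.5 ± 0.48 SE, edgeR adjusted p = 1.15e-06). PYL5 (1.36), PYR1 (0.63), PYL9, listed as RCAR1 (0.35), and PYL1 (0.26) rose too, though PYL1 did not pass without any 1 of 4 libraries or with the replicate as a random block (limma adjusted p = 0.0994). PYL2 and PYL7 had log2 fold changes of 0.49 and 0.31 that did not pass.

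Of the 8 tested clade A PP2C genes, 6 were called lower and 0 higher, with a median of -0.74. PP2CA (chromosome 3, 3583782 to 3585850) ran from 23.0 through a median of 28.2 to 33.8 CPM in aba1-6, against 42.6, 66.8 and 85.9 CPM in wild type. The groups did not overlap, and the log2 fold change was -1.24 ± 0.10 SE (edgeR adjusted p = 6.5e-12). HAI1 and HAI2, known as highly ABA-induced members, had few counts. HAI1 had 0.247, 0.806 and 1.43 CPM in aba1-6, against 2.22, 4.49 and 13.0 CPM in wild type (-2.71 ± 0.55 SE, edgeR adjusted p = 0.001), a call that was lost with the replicate as a random block (limma adjusted p = 0.133). HAI2 had 0, 0.437 and 0.857 CPM in aba1-6, against 0.265, 3.03 and 4.0 CPM in wild type (-2.68 ± 0.37 SE). ABI2 (-0.72), ABI1 (-0.40) and HAB1 (-0.39) fell less. HAB2 had -0.05 and HAI3 -0.77, and neither passed.

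Called genes among kinases, factors and their partners went both ways. Of 16 tested, 2 were called higher and 4 lower, against 17% called over all genes tested, and the median was -0.01. AFP1 and AFP3 encode proteins that bind the factor ABI5 and restrain it. AFP3 ran from 2.45 through a median of 5.81 to 7.73 CPM in aba1-6, against 11.6, 18 and 23.58 CPM in wild type, with no overlap (-1.60 ± 0.14 SE, edgeR adjusted p = 1.23e-10). AFP1 had 0.429, 1.29 and 2.08 CPM in aba1-6, against 2.67, 5.70 and 10.08 CPM in wild type, also with no overlap (-2.03 ± 0.27 SE). The factor genes GBF3 (-0.72) and ABF3 (-0.58) fell. The kinase genes SNRK2.3 (0.39) and SNRK2.2 (0.25) rose, while OST1, the guard cell kinase gene, had a log2 fold change of 0.08 that did not pass. ABF1, ABF2, ABF4 and ABI5 had 0.01, -0.18, 0.00 and 0.20, and none of these 4 passed.

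**Figure D1:**
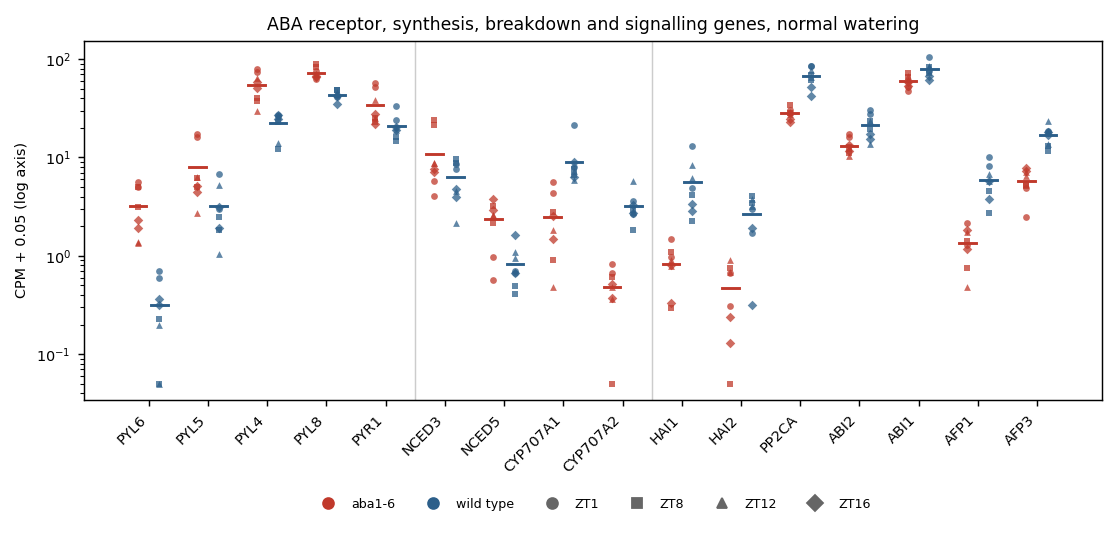
Levels of 16 genes of ABA perception, signalling and turnover, PYL6 to AFP3, in CPM + 0.05 on a log axis. For each gene the aba1-6 libraries stand left of the wild-type libraries, 8 of each, with 1 symbol per time and a bar at the mean; PYL4 has 29.7 to 79.6 CPM in aba1-6 against 12 to 27.2 CPM in wild type, and PP2CA 23.0 to 33.8 CPM against 42.6 to 85.9 CPM.

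ABF factors bind sequences with ACGT, and ACGTG is the core of the ABA-responsive element. It was searched on both strands in the 250 bases before each annotated gene start (TAIR10.1), so the palindrome CACGTG counts as 2 overlapping matches. Promoters of a pair of genes that fell without overlap (AFP3, PP2CA), 1 low-count gene that fell (HAI2) and 1 receptor gene that rose without overlap (PYL4) are shown 5' to 3' on the gene's strand, with matches in capitals.
AFP3, chr3:11384146-11384395, minus strand, 8 matches: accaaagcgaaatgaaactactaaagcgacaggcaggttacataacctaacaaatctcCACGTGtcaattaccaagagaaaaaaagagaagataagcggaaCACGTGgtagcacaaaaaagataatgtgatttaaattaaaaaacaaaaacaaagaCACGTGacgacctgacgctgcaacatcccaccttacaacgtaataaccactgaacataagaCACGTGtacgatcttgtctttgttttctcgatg
PP2CA, chr3:3585851-3586100, minus strand, 5 matches: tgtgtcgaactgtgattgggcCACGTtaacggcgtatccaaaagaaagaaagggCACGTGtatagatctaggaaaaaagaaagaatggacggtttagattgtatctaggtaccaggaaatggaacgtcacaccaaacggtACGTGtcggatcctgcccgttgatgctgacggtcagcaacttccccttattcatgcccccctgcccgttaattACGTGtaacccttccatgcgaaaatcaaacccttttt
HAI2, chr1:2282829-2283078, minus strand, 4 matches: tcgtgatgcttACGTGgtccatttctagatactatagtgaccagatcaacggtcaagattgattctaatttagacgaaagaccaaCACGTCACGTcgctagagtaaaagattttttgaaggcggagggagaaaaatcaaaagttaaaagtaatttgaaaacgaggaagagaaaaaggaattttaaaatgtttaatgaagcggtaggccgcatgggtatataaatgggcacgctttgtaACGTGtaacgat
PYL4, chr2:16049668-16049917, plus strand, 0 matches: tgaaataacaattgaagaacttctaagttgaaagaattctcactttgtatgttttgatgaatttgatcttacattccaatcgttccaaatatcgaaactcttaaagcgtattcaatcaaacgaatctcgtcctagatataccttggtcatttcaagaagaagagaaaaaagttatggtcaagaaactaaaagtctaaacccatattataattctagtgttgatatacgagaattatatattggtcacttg

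The letters ACGTG occurred in 4391 of the 18759 promoters of tested genes that could be read, which is 23.4%. Of genes called lower 29.8% held it, of genes called higher 21.4%, and of genes not called 22.9%. Among genes lower by at least 2-fold in the log2 mean the share was 43.6% (98 of 225), and among genes higher by as much it was 19.8% (38 of 192). By list, 5 of 8 tested PP2C promoters held it and 3 of the 6 called ones, so both PP2C genes that were not called did. Of the receptor promoters 2 of 9 tested and 1 of the 7 called ones held it. HAI1, LTI78, BGLU18 and VSP2, which fell, have 0 matches in this window. KIN1 and KIN2, which fell too, have 1 each, COR15A, AFP1, CYP707A1 and MBP1 2 each, and RD20 3. The falling genes shown above have more matches than these and do not stand for all genes that fell. A match is a description of the sequence only, and no test was made of these shares.

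Genes for protective proteins were lower wherever they were called. Of the 20 tested genes of the list of LEA proteins, dehydrins and RD, COR and KIN genes, 11 were called lower and 0 higher, with a median of -0.72. COR15A encodes a chloroplast protein that protects membranes in the cold. It ran from 16.8 through a median of 44.8 to 281 CPM in aba1-6, against 146, 310 and 1308 CPM in wild type, and its log2 fold change was -2.84 ± 0.15 SE (edgeR adjusted p = 2.17e-13). Although these ranges overlap across the day, at each time both aba1-6 libraries lay below both wild-type libraries. At ZT1 they had 16.8 and 22.8 CPM, against 252 and 202 CPM in wild type, and at ZT8, the highest of the 4 times, 245 and 281 CPM, against 920 and 1308 CPM. LTI78, also known as RD29A, had 63.6 and 52.4 CPM at ZT1 in aba1-6, against 248 and 188 CPM in wild type. At ZT8 it had 700 and 590 CPM in aba1-6, against 1309 and 1618 CPM in wild type (-1.36 ± 0.12 SE over the day). Both genes kept their rise towards ZT8 in the mutant at a lower level.

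KIN1 (-3.23), RD20, a caleosin gene (-1.56), KIN2 (-1.55) and COR15B (-1.13) fell by more than 2-fold in the log2 mean, and COR47 (-0.49) and ERD10 (-0.43), both dehydrins, by less. KIN1 did not pass with the replicate as a random block (limma adjusted p = 0.117). KIN1 and KIN2, and COR15A and COR15B, are close copies that can share reads. LTI65, also known as RD29B, averaged 0.685 CPM in aba1-6 and 8.15 CPM in wild type, and did not pass (-2.60, edgeR adjusted p = 0.41). RD22 (-0.06), ERD14 (-0.16) and ERD1 (-0.04) did not pass either. Of these 20 genes 13 had ACGTG in the promoter window, but of the 11 called ones 6, a smaller share. The longer forms ACGTGGC or ACGTGTC were in 4 of the 20 and in 0 of the 11 called ones, against 7.4% of all tested promoters, and LTI78 and LTI65 had 0 and 4 matches of ACGTG.

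Factor and osmolyte genes that fell included MYBR1 and P5CS1. Of 15 tested genes for stress NAC and other ABA-raised factors, 5 were called lower and 0 higher. MYBR1, also known as MYB44, had 19.1, 24 and 42.3 CPM in aba1-6, against 44.9, 63.3 and 75.6 CPM in wild type, with no overlap (-1.16 ± 0.11 SE). NAC019 (-1.68), NAC032 (-0.57), MYC2 (-0.51) and NAC102 (-0.31) were called lower as well, whereas RD26 had -0.83 and did not pass. Without aba1-6 at ZT1, replicate 2, or wild type at ZT16, replicate 1, and also under scaling by library totals or with the replicate as a random block, 3 members of the list were called lower. NAC032 (edgeR adjusted p up to 0.12) and NAC102 (up to 0.102) did not pass without that aba1-6 library, NAC019 not without that wild-type library (edgeR adjusted p = 0.0865), and MYC2 not in a fit of the 16 libraries alone. Of the 10 tested CBF and DREB genes 1 was called higher and 1 lower, a share near the 17% called over all genes tested. P5CS1, the gene of the rate-limiting enzyme of proline synthesis, had 99.0, 149 and 242 CPM in aba1-6, against 181, 261 and 429 CPM in wild type (-0.70 ± 0.14 SE). Among 6 galactinol and raffinose genes 0 were called, and their log2 fold changes ran from -0.20 to 0.24.

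**Figure D2:**
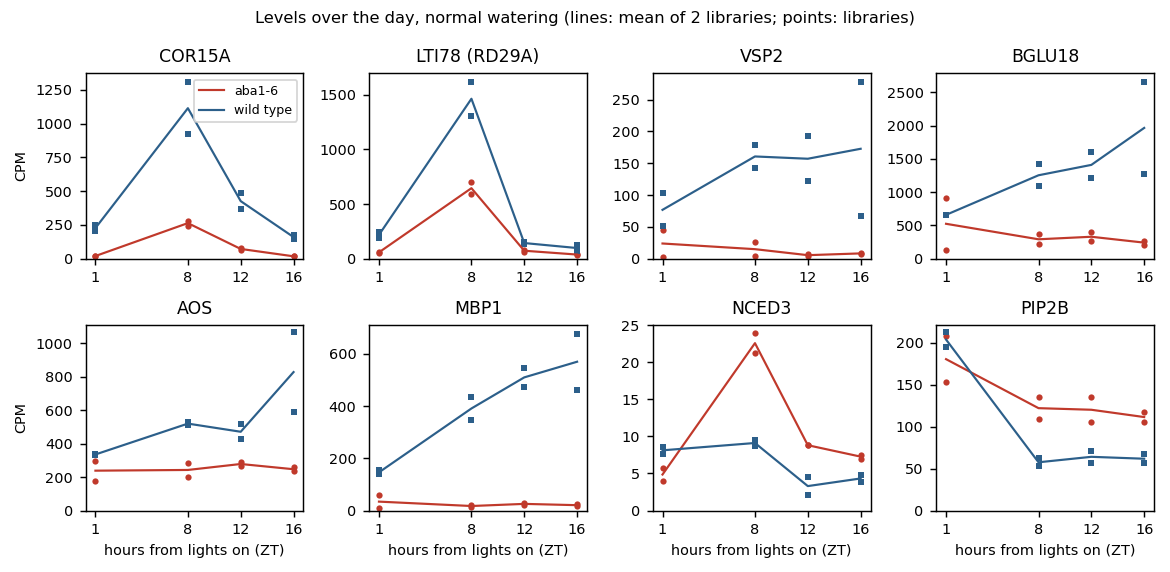
Levels of 8 genes, COR15A, LTI78, VSP2, BGLU18, AOS, MBP1, NCED3 and PIP2B, in CPM on linear axes from 0, at ZT1, ZT8, ZT12 and ZT16. Points are libraries, 2 per genotype and time, and lines join their means, aba1-6 and then wild type in the legend; at ZT8 COR15A has 245 and 281 CPM in aba1-6 against 920 and 1308 CPM in wild type, while the NCED3 lines cross between ZT1 and ZT8.

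Cuticle genes were lower in aba1-6 where they were called. Of the 36 tested genes of wax and cutin synthesis, 12 were called lower and 0 higher, with a median of -0.19. CER1, which is needed for wax alkanes, ran from 88.5 through a median of 101 to 136 CPM in aba1-6, against 139, 260 and 356 CPM in wild type, without overlap (-1.18 ± 0.15 SE, edgeR adjusted p = 1.95e-06). WSD1, a wax ester synthase gene, had 1.23, 3.31 and 6.64 CPM in aba1-6, against 4.0, 9.54 and 24.1 CPM in wild type (-1.59 ± 0.22 SE). The lipid transfer protein gene LTP3 (-2.13), the elongase gene KCS2 (-0.73) and CYP86A2, a fatty acid hydroxylase gene of cutin synthesis (-0.68), were called lower. With the replicate as a random block 7 of the 36 were called lower, and LTP3 was not among them (limma adjusted p = 0.29); its call was also lost without any 1 of 9 libraries. CER3 (-0.07), CER5 (0.02) and CER6, listed as KCS6 (-0.10), were not called.

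Of 26 guard cell genes tested, 3 were called higher and 2 lower, a share near the 17% called over all genes tested. Where library totals were the only scaling, 9 were called higher and 2 lower. Without wild type at ZT12, replicate 1, or at ZT16, replicate 1, 5 were called higher. KAT2, an inward potassium channel gene, had 9.84, 11 and 12.1 CPM in aba1-6, against 3.13, 5.96 and 8.78 CPM in wild type, without overlap (0.90 ± 0.14 SE, edgeR adjusted p = 6.54e-06). MYB60, a guard cell factor gene tied to stomatal opening, rose by 0.72, and BLUS1 (AT4G14480), a blue light signalling kinase gene, by 0.46 on the log2 scale. RBOH_F, an NADPH oxidase gene of ABA signalling, had -0.36 and the myrosinase gene TGG2 -0.77. SLAC1, the anion channel gene listed as OZS1, had a log2 fold change of 0.04 that did not pass. Of 17 genes of stomatal development 3 rose, among them SPCH, the factor that starts the stomatal lineage (0.48), and 1 fell, FLP (-0.70), which limits divisions late in that lineage. The calls of TGG2 and of SPCH were each lost without any 1 of 12 libraries (edgeR adjusted p up to 0.166 and 0.361), and without any 1 of 9 libraries 1 gene of stomatal development was called higher.

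Aquaporin genes split. Of 11 tested, 5 were called lower and 2 higher, against 17% called over all genes tested. DELTA-TIP, a tonoplast channel gene also known as TIP2;1, had 96.2, 123 and 535 CPM in aba1-6, against 221, 352 and 1030 CPM in wild type (-1.19 ± 0.11 SE). PIP2;7, listed as PIP3, had 274, 420 and 683 CPM in aba1-6, against 495, 679 and 789 CPM in wild type (-0.58 ± 0.08 SE). PIP2B, also known as PIP2;2, had 105, 126 and 208 CPM in aba1-6, against 52.7, 64.8 and 213 CPM in wild type (0.67 ± 0.09 SE). Its neighbour RD28, also known as PIP2;3, a close copy, had 0.46, which did not pass in a fit of the 16 libraries with time as an additive block. RD28 averaged 46.9 CPM in aba1-6 and 46.1 CPM in wild type, so its mean level was not raised. At ZT1 its mean was 104 CPM in aba1-6 and 132 CPM in wild type, with overlapping libraries. At ZT8 it was 25.7 and 12.1 CPM, and aba1-6 lay above wild type at the later times too.

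Jasmonic acid genes were mostly lower in aba1-6 where they were called. Jasmonate is a wound and defence hormone made from plastid lipids. Of 28 tested genes 10 were called lower and 1 higher, with a median of -0.33. VSP2, a vegetative storage protein gene and a common jasmonate marker, ran from 1.99 through a median of 7.50 to 45.8 CPM in aba1-6, against 51.0, 132 and 278 CPM in wild type. Every aba1-6 library lay below every wild-type library (-3.55 ± 0.41 SE, edgeR adjusted p = 6.2e-07). Its neighbour VSP1, a close copy, fell by 2.98. AOS, the allene oxide synthase gene of jasmonate synthesis, had 178, 263 and 299 CPM in aba1-6, against 333, 514 and 1064 CPM in wild type, also without overlap (-1.02 ± 0.10 SE). LOX3 (-0.83), LOX2 (-0.67), AOC2 (-0.66) and AOC1 (-0.53), also of synthesis, and the repressor genes JAZ3 (-0.52) and JAZ6 (-0.26) fell. OPR3 (-0.32) and JAZ1 (-0.06) did not pass, and the receptor gene COI1 rose by 0.16. In a fit of the 16 libraries alone, and without wild type at ZT16, replicate 1, 5 of the 28 genes were called lower. LOX2 did not pass in either (edgeR adjusted p = 0.0682 without that library). With the replicate as a random block 7 were called lower and 0 higher, and COI1, JAZ6 and AOC1 did not pass (limma adjusted p = 0.183, 0.148 and 0.14). The calls of these 3 were also lost without any 1 of 10, 10 and 12 libraries.

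The 2 aba1-6 libraries at ZT1 differed for several of these genes. VSP2 had 45.8 and 1.99 CPM there, BGLU18 919 and 130 CPM, and MBP1, a myrosinase-binding protein gene, 60.1 and 8.13 CPM. Replicate 1 was in each case the highest of the 8 aba1-6 libraries, and for VSP2 and MBP1 it still lay below the lowest wild-type library, at 51.0 and 139 CPM.

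Lists of salicylic acid and ethylene held called genes at about the 17% of all genes tested. Of 25 tested genes of salicylic acid and defence, 1 was called higher and 4 lower. CBP60G, a factor gene of salicylic acid synthesis, had 17.8, 20.1 and 29.6 CPM in aba1-6, against 8.29, 10.2 and 17.43 CPM in wild type, without overlap (0.95 ± 0.14 SE). WRKY54 (-0.66), ACD6 (-0.65), WRKY70 (-0.39) and NIMIN1, with groups at 0, were called lower. PR1 (-0.16), PR2, listed as BGL2 (0.28), and PR5 (-0.27) did not pass. Of 28 ethylene genes 3 were called higher, ACS4 (1.34), EIL1 (0.42) and ERS1 (0.38), and 2 lower, HCHIB, a chitinase gene (-1.54), and ACS7, with 2 counts in aba1-6 and 22 in wild type. Calls were lost for WRKY70 without any 1 of 11 libraries, for NIMIN1 without any 1 of 4, for ACS7 without any 1 of 10, and for ACS4 without aba1-6 at ZT8 or at ZT12, replicate 2 each (edgeR adjusted p up to 0.134). Without aba1-6 at ZT1, replicate 2, wild type at ZT1, replicate 2, or wild type at ZT12, replicate 2, 2 genes of salicylic acid and defence were called lower, as with the replicate as a random block.

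Growth hormone genes changed in both directions for gibberellin and mainly upwards for auxin. Of 27 tested gibberellin genes 6 were called higher and 6 lower. GA3OX1, of the last step to active gibberellin, had 2.59, 8.32 and 20.1 CPM in aba1-6, against 1.04, 3.49 and 10.2 CPM in wild type (1.2 ± 0.16 SE, edgeR adjusted p = 5.22e-07). GASA6 (AT1G74670) had 85.0, 151 and 296 CPM in aba1-6, against 11.6, 51.7 and 98.9 CPM in wild type (1.72 ± 0.12 SE). The DELLA genes, whose proteins restrain gibberellin responses, included 4 that were called lower: RGL2 (-0.94), RGL3 (-0.62), GAI (-0.34) and RGA1 (-0.30). GASA1 (-1.36) was lower too. The call of RGL3 was lost without any 1 of 8 libraries and with the replicate as a random block (limma adjusted p = 0.108).

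Of 28 tested auxin genes 9 were called higher and 2 lower, with a median of 0.14. IAA1, an early auxin response gene, had 8.14, 15 and 49.2 CPM in aba1-6, against 5.21, 8.30 and 25.2 CPM in wild type (0.91 ± 0.11 SE). YUC2, of auxin synthesis (0.79), IAA29 (0.70), GH3.3 (0.60), IAA2 (0.46) and the influx carrier gene AUX1 (0.30) rose. IAA19 (-0.30) and PIN3 (0.15) did not pass. Without aba1-6 at ZT8, replicate 2, aba1-6 at ZT12, replicate 2, or wild type at ZT12, replicate 2, 5 auxin genes were called higher. The call of IAA29 was lost without any 1 of 7 libraries (edgeR adjusted p up to 0.18), and that of GH3.3 without wild type at ZT12, replicate 2 (edgeR adjusted p = 0.0568). With the replicate as a random block 6 auxin genes were called higher and 0 lower, and IAA29 did not pass (limma adjusted p = 0.149).

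Cell wall loosening genes split by gene. Of 29 tested, 4 were called higher and 13 lower, with a median of -0.39. EXPA1, an expansin gene, ran from 253 through a median of 311 to 429 CPM in aba1-6, against 94.2, 102 and 214 CPM in wild type. Every aba1-6 library lay above every wild-type library (1.36 ± 0.07 SE, edgeR adjusted p = 4.69e-19). EXPA8 rose by 1.31. XTH6, which encodes a xyloglucan-remodelling enzyme, had 15.7, 33.2 and 240 CPM in aba1-6, against 93.5, 135 and 367 CPM in wild type (-1.74 ± 0.13 SE). XTR6 (-1.97), EXLA1 (-1.71), EXLA2 (-1.54) and XTH24 (-1.41) fell. Members of these families are similar in sequence and can share reads.

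Over all genes 17% were called, and the counts of the metabolic and light-related lists are set beside that share. Of 21 flavonoid genes 1 was called higher and 4 lower, among them F3H, of an early step (-0.75), and UGT78D2 (-0.67), but the count of lower ones ran from 1 to 7 when single libraries were left out and was 2 with the replicate as a random block, and F3H did not pass without wild type at ZT8, replicate 2 (edgeR adjusted p = 0.116). Of 30 starch and sugar genes 1 was higher and 6 lower, among them SUS1, a sucrose synthase gene (-1.03). Of 15 genes of carbon starvation and darkness 3 were higher, such as TPS9 (0.80), and 2 lower, such as EXL2 (-0.85). DIN6, the asparagine synthetase gene listed as ASN1, had -1.10 and did not pass. Without wild type at ZT12, replicate 2, 1 gene of carbon starvation and darkness was called higher. Of 39 photosystem, antenna and Rubisco genes 1 was higher and 5 lower, and under scaling by library totals 8 were higher and 4 lower. Without aba1-6 at ZT12, replicate 2, or wild type at ZT16, replicate 2, and with the replicate as a random block, 3 were lower. RBCS1A, a Rubisco small subunit gene, had 11620, 14510 and 17790 CPM in aba1-6, against 15220, 17660 and 20450 CPM in wild type (-0.29 ± 0.07 SE).

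Photoprotection and reactive oxygen genes included 9 called lower and 1 higher of 29. CSD2, a copper/zinc superoxide dismutase gene, had 250, 280 and 348 CPM in aba1-6, against 384, 446 and 565 CPM in wild type, without overlap (-0.64 ± 0.07 SE). SAPX (-0.60), VTC2 (-0.45) and CSD1 (-0.36) fell as well. Of 21 clock genes 5 were called lower and 0 higher, against 17% called over all genes tested. They are LNK1 (AT5G64170, -0.52), RVE8 (AT3G09600, -0.47), GI (-0.46), TCP21 (AT5G08330, -0.40) and LNK2 (AT3G54500, -0.38). LHY (-0.39), CCA1 (-0.68) and TOC1 (0.07) did not pass. The size varied with the hour in the means: GI had 287 CPM in aba1-6 and 301 CPM in wild type at ZT8, its highest time, but 40.5 and 72.5 CPM at ZT1. At ZT1, their highest time, LNK2 had 757 and 840 CPM, with overlapping libraries, LNK1 263 and 331 CPM, and RVE8 83.8 and 117 CPM. TCP21 had 34.45 and 61.3 CPM at ZT8. Under scaling by library totals, without aba1-6 at ZT12, replicate 2, and without wild type at ZT16, replicate 2, 3 clock genes were called lower. RVE8 and LNK2 did not pass without any 1 of 8 and of 7 libraries (edgeR adjusted p up to 0.333 and 0.526). With the replicate as a random block 3 clock genes were called lower as well, and RVE8 and LNK2 did not pass (limma adjusted p = 0.35 and 0.0542). Of 16 flowering genes 3 were higher and 4 lower (5 and 3 under scaling by library totals), among them SOC1, listed as AGL20 (-0.80), while FT had a log2 fold change of -0.55 that did not pass. Without aba1-6 at ZT8, replicate 2, wild type at ZT8, replicate 2, or wild type at ZT12, replicate 2, 2 of them were lower. Heat shock genes had 1 higher and 2 lower of 16, and nitrate and phosphate genes 3 and 3 of 21 (6 and 3 under scaling by library totals).

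**Figure D3:**
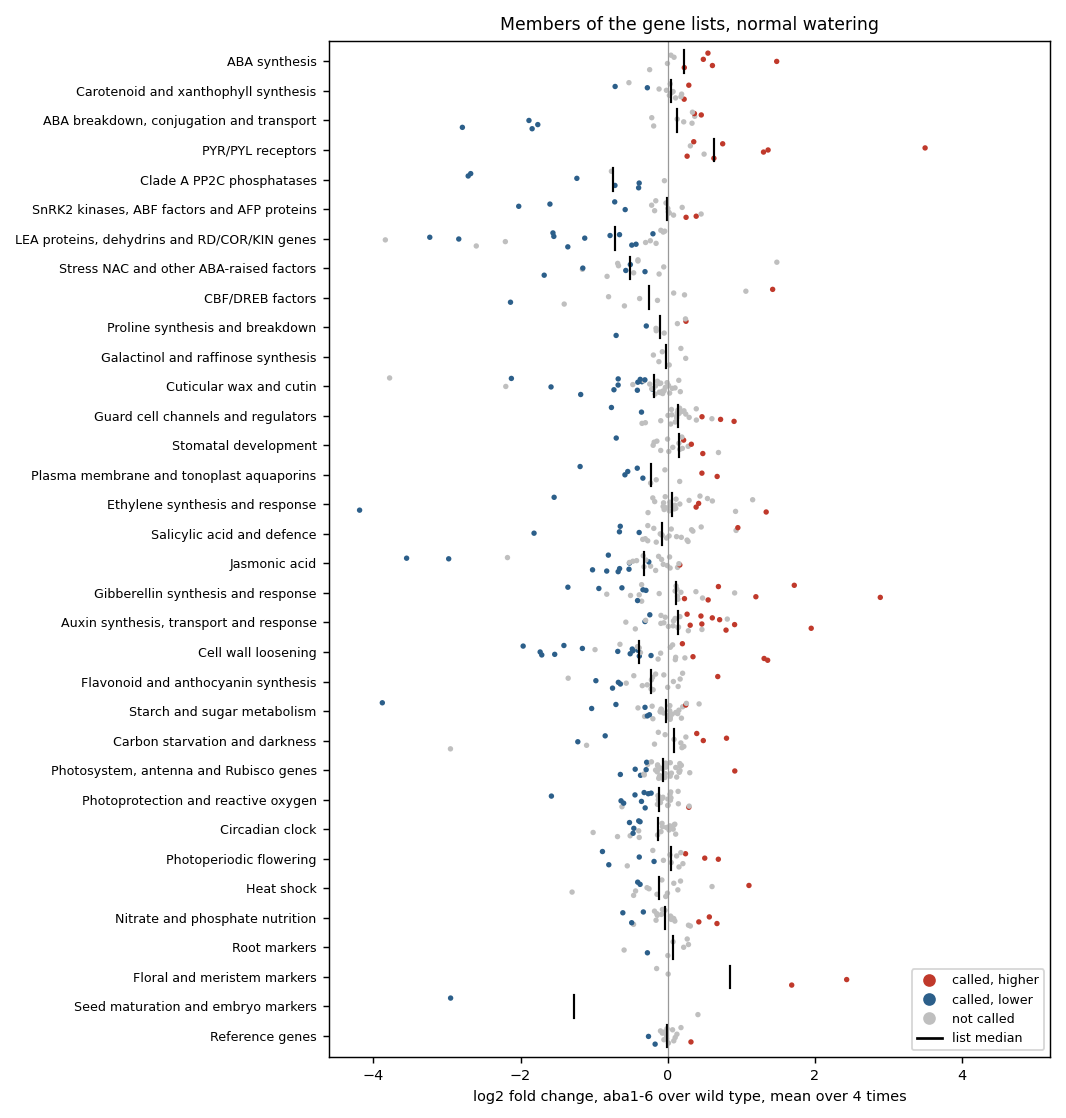
Log2 fold changes of aba1-6 over wild type, mean of 4 times, for the tested members of 34 gene lists. Each dot is a gene, red where it was called higher in aba1-6, blue where called lower and grey otherwise, and the black bar is the list's median; the receptor list has a median of 0.63, the PP2C list -0.74 and the LEA, RD, COR and KIN list -0.72, against 0.01 over all 19037 genes.

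Markers of other organs were low in both genotypes. Of 13 root markers 7 passed the filter on low counts, 1 of them was called (SCR, -0.28), and their summed level was 60.4 to 92.5 CPM in aba1-6 and 63.0 to 99.5 CPM in wild type. Of 11 floral and meristem markers 4 passed the filter. PI, with 2.27 CPM in aba1-6 and 0.866 CPM in wild type on average, and SEP3, with 0.798 and 0.226 CPM, were called higher, and 1 of the 11 was at 0 in all 16 libraries. Neither call held without aba1-6 at ZT1, replicate 1 (edgeR adjusted p = 0.0765 for PI and 0.086 for SEP3). The summed level of these 11 was 17.8 to 28.8 CPM in aba1-6 and 13.1 to 27.1 CPM in wild type. Of 16 seed markers 2 passed, 9 were at 0 in all 16 libraries, and FUS3 was called lower on 13 counts in aba1-6 and 35 in wild type, a call that was lost without any 1 of 9 libraries. Of 16 reference genes 3 were called, ACT8 (0.31), UBQ5 (-0.26) and ACT2 (-0.17), and the median was -0.01; under scaling by library totals 4 were higher and 0 lower. The part of organ makeup in the results was not tested.

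Outside the lists, the highest rise was that of AT3G01345, annotated as an uncharacterized protein on chromosome 3 at 129138 to 130749. It had 203, 273 and 311 CPM in aba1-6, against 0, 0.0495 and 1.04 CPM in wild type. In total 24599 counts in aba1-6 stood against 10 in wild type, where 4 of the 8 libraries were at 0, so no fold is given. Under drought it averaged 241 CPM in aba1-6 and 0.221 CPM in wild type, and in gi-2 under normal watering 0.423 CPM. It was thus abundant in aba1-6 in both regimes, and near 0 in wild type in both and in gi-2 under normal watering. Whether this comes from the loss of ABA1 or from another difference of the line was not tested.

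CRK30, which encodes a cysteine-rich receptor-like kinase, had 15.6, 25.8 and 34.2 CPM in aba1-6, against 0.595, 1.64 and 3.27 CPM in wild type (4.09 ± 0.24 SE, edgeR adjusted p = 1.02e-13). AT1G27020, annotated as a plant protein, had 21.5, 33.7 and 81.5 CPM in aba1-6, against 2.08, 5.83 and 11.8 CPM in wild type (2.76). The groups of both genes did not overlap. MEE3, a homeodomain-like gene (2.02), AT3G16530, a legume lectin gene (1.88), and IMS2, annotated as a 2-isopropylmalate synthase gene (1.58), followed among the highest rises.

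The largest falls were of genes of many kinds, COR15A, KIN1, HAI1 and AFP1 among them. MBP1 had 8.13, 20.8 and 60.1 CPM in aba1-6, against 139, 449 and 677 CPM in wild type (-3.90 ± 0.22 SE, edgeR adjusted p = 2.46e-12). Myrosinase-binding proteins accompany the enzymes that break down glucosinolates. AT1G52000, a mannose-binding lectin gene on the same chromosome, fell by 2.38. PCC1, known as pathogen and circadian controlled, had 3.68, 42.6 and 77.3 CPM in aba1-6, against 26.5, 311 and 501 CPM in wild type (-2.81 ± 0.20 SE). At ZT12 it had 69.0 and 77.3 CPM in aba1-6, against 367 and 501 CPM in wild type. AT3G22235 (-2.34), a cysteine-rich transmembrane gene near PCC1, AT1G73325, a Kunitz-type protease inhibitor gene (-2.82), and AT5G03350, a legume lectin gene (-2.08), were lower as well.

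AT3G27250, an uncharacterized gene, had 0, 0.196 and 0.92 CPM in aba1-6, against 5.11, 9.03 and 12.2 CPM in wild type, which was the largest fall among called genes that were lower at all 4 times and averaged at least 5 CPM in wild type (-5.04 ± 0.50 SE). PUB19 (AT1G60190), a U-box ubiquitin ligase gene, fell by 2.27, SWEET13 (AT5G50800), a sugar transporter gene, by 2.01, and AT1G14250, a nucleoside phosphatase gene, by 2.58 on the log2 scale.

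Taken at single times, 627 genes (3.29%) were called for ZT1, 820 (4.31%) for ZT8, 372 (1.95%) for ZT12 and 366 (1.92%) for ZT16, with 2 libraries a group each. More were lower than higher at each time, 403 (2.12%) and 224 (1.18%) at ZT1, 545 (2.86%) and 275 (1.44%) at ZT8, 195 (1.02%) and 177 (0.93%) at ZT12, and 219 (1.15%) and 147 (0.772%) at ZT16. With 1 of the 4 libraries of a time left out, 249 to 408 genes were called at ZT1 in 3 of the 4 cases (without either aba1-6 library or wild type, replicate 1), 330 to 448 at ZT8 in all 4, 153 to 233 at ZT12 in 3 (without either aba1-6 library or wild type, replicate 1) and 112 to 140 at ZT16 in 3 (without the same libraries of that time). The size of the difference changed with the hour for 39 genes (0.205%), and 1429 had an unadjusted p under 0.05 in that test, so most differences were not shown to depend on the hour. That count was 16 without wild type at ZT1, replicate 1, 18 without aba1-6 at ZT1, replicate 1, 25 and 23 without aba1-6 at ZT16, replicate 1 and replicate 2, 60 without aba1-6 at ZT12, replicate 2, 71 without wild type at ZT16, replicate 2, and 80 without wild type at ZT12, replicate 2. AT1G20070, uncharacterized, had the smallest p (edgeR adjusted p = 1.21e-08). At ZT1 it had 42.9 and 46.5 CPM in aba1-6, against 71.4 and 62.4 CPM in wild type. At ZT16 it had 84.5 and 77.5 CPM in aba1-6, against 31.1 and 27.1 CPM in wild type.

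EXPA11, an expansin gene, showed the same order: 14.8 and 11.8 CPM at ZT1 in aba1-6, against 22.3 and 30.2 CPM in wild type, and 56.6 and 52.1 CPM at ZT12 in aba1-6, against 28.1 and 37.7 CPM in wild type (edgeR adjusted p = 0.000244). The aquaporin gene PIP2B also differed between times (edgeR adjusted p = 0.0295). At ZT1 its libraries had 208 and 153 CPM in aba1-6, against 213 and 195 CPM in wild type, and at ZT8 135 and 109 CPM, against 52.7 and 62.3 CPM. In these 3 genes the mean of aba1-6 lay below that of wild type at ZT1 and above it at the 3 later times.

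Under drought the same genotypes were measured in libraries of their own, 8 of aba1-6 and 8 of wild type, so no library is shared with the comparison above. Of the 3231 genes called under normal watering, 1768 were also called under drought in the same direction and 34 in the opposite one. Under drought 4310 genes (22.6%) were called, 2161 higher (11.4%) and 2149 lower (11.3%). The 1768 shared calls are 54.7% of those under normal watering and 41% of those under drought. COR15A averaged 262 CPM in aba1-6 and 1356 CPM in wild type under drought, against 93.3 CPM in aba1-6 and 482 CPM in wild type under normal watering. VSP2 averaged 15.3 CPM in aba1-6 and 357 CPM in wild type under drought, against 13.2 CPM in aba1-6 and 142 CPM in wild type under normal watering.

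The difference between genotypes itself differed between regimes for 522 genes (2.74%), of which 253 were among the 3231. The difference was more positive under drought for 348 (1.83%) and more negative for 174 (0.914%). PYL4 had a log2 fold change of 2.14 under drought, against 1.3 under normal watering, and PP2CA had -1.77 under drought, against -1.24 under normal watering. The tonoplast gene DELTA-TIP had -0.42 under drought, against -1.19 under normal watering, and PIP2;7 (PIP3) had 0.00 under drought, against -0.58 under normal watering. PYL4, PYL8, PP2CA and HAB1 thus differed more between genotypes under drought, and DELTA-TIP, PIP2;7 and TIP2 differed less. Under drought SQD1, a sulfolipid synthesis gene of phosphate shortage, was higher in aba1-6 (0.75), against -0.33 under normal watering, and PAP17, a phosphatase gene of the same response, had 0.83 under drought, against -0.61 under normal watering.

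**Figure D4:**
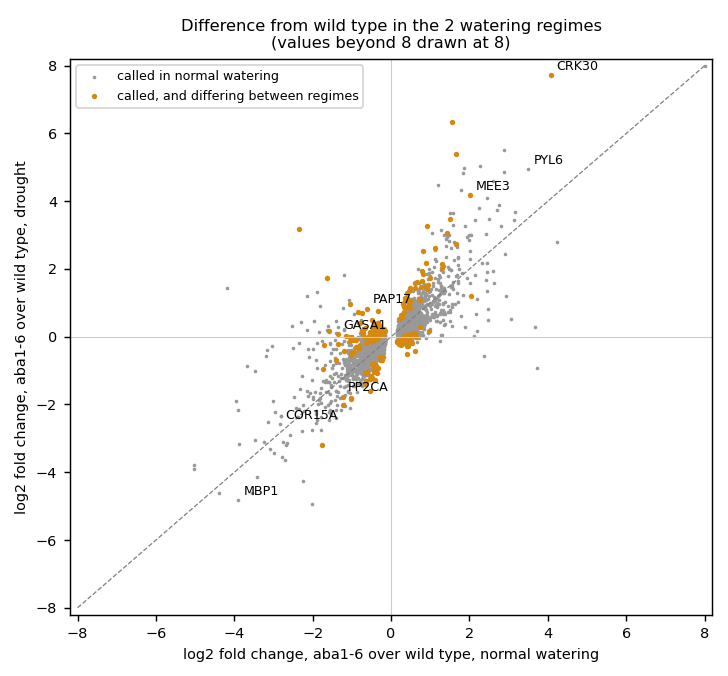
Log2 fold changes of aba1-6 over wild type under normal watering (horizontal) and under drought (vertical) for the 3231 genes called under normal watering, each a mean over 4 times. Orange points differ between the regimes, values beyond 8 are drawn at 8, and CRK30 lies at 7.71 under drought and 4.09 under normal watering. For CRK30 wild type averaged 0.132 CPM under drought.

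The gi-2 mutant under normal watering differed from aba1-6 in 4100 genes (21.5%), with 2259 (11.9%) higher and 1841 (9.67%) lower in gi-2. Values of some genes that were called lower in aba1-6 are set side by side here as examples, and falls shared by both mutants were not counted. COR15A averaged 93.3 CPM in aba1-6, 852 CPM in gi-2 and 482 CPM in wild type, BGLU18 averaged 347, 1283 and 1322 CPM, and AOS 251, 473 and 538 CPM in the same order. Other such genes were well below wild type in gi-2 too. In that order F3H averaged 55.0, 49.2 and 93.9 CPM, AT1G73325 1.80, 4.77 and 15.6 CPM, and PAP17 46.4, 38.7 and 70.4 CPM. Each mean is of a genotype's own 8 libraries, and the 4100 calls compare the 2 mutants directly, without the wild-type libraries.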

How the data were processed

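RNA was measured in 48 libraries, of which 16 are compared here. The authors deposited 1 table of expected counts, that is estimated read counts per gene that were not normalized. This was judged from the values, of which 98.6% are whole. The table was made with Bowtie2, RSEM, edgeR and TAIR10, per the submitters' processing notes, which give no versions or roles. Use of strand in counting is not given in the sources used here, so overlapping genes cannot be told apart. Among whole values of at most 10, 66.8% to 80.2% in each of the 16 libraries were even. Both mates of a pair may therefore be counted, and single values get no counting interval. The last column of the deposited table carries an extra tab on every line, and its unit was entered as other. This library, gi-2 under drought, has a genotype tag that goes against its title and was placed by the title.

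Of 26988 names, 26242 matched 1 locus of the RefSeq annotation of TAIR10.1, the source of positions and promoters. The other 746, with 2.35% of counts, stayed in the tests, and no row lacks a name.

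The values were rounded and analysed in R 4.3.3 with edgeR 4.0.16. Filtering with filterByExpr left 19037 genes. TMM scaled the libraries (factors 0.862 to 1.135), and a quasi-likelihood model of 24 group means was fitted to all 48 libraries (24 residual degrees of freedom, biological coefficient of variation 12.1%). The contrast is aba1-6 over wild type, averaged over 4 times. It was also tested at each time, between times (3 degrees of freedom) and between drought and normal watering. Benjamini-Hochberg adjustment ran over all genes tested. CPM uses TMM-scaled totals. A log2 fold change averaged over times weighs low and high levels alike and can differ from the ratio of mean CPM. Where both libraries of a group are at 0, counts are given and no fold. Nothing in the labels says whether the 2 libraries of a group came from separate growths, so p-values measure the spread between these libraries only.

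Libraries were grouped by title. The comparison and the 34 gene lists were chosen with earlier results of these data known, and no list was tested as a set. Named were ABA1; the 15 called genes with the largest rise and the 15 with the largest fall among those beyond wild type in both libraries at all 4 times and at 5 CPM or more in the higher group; up to 6 called members a list; and the 5 genes with the smallest p for time. Other members are given as values. The fit was tested on simulated data, drawn independently for each library with the same spread for every gene. Such data lack the shared deviations of same-numbered libraries, so that test does not bear on them. Replicate numbers do not pair the genotypes (correlations of deviations -0.055 to 0.109). Alternatives were other scalings, filters, fits and tools (limma, DESeq2), and leaving out libraries; the fit of limma without a block was chosen after seeing the data.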

Additional observations from a re-analysis of the deposited data

Results flagged for a closer look

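Each value in this paragraph is the aba1-6 difference from wild type under drought minus that under normal watering, on the log2 scale, for named genes whose difference changed between the regimes (edgeR adjusted p under 0.05 for the interaction). Rise and fall here mean aba1-6 above or below wild type. A larger rise under drought was found for CRK30 (3.62), MEE3 (2.15), AT4G11290, a peroxidase gene (1.09), BGAL4, a beta-galactosidase gene (0.96), PYL4 (0.84), YUC2 (0.84), AT1G20070 (0.59) and RCAR3, which is PYL8 (0.35). CRK30 averaged 12.2 CPM in aba1-6 and 0.132 CPM in wild type under drought, against 25.55 and 1.80 CPM under normal watering. MEE3 (7.47 and 1.01 CPM, against 12.5 and 3.40 CPM) and PYL4 (29.1 and 6.37 CPM, against 54.3 and 22.5 CPM) were also lower under drought in both genotypes. AT1G20070 was higher in aba1-6 under drought (88.9 CPM, against 77.3 CPM). A larger fall under drought was found for the hydroxylase gene CYP707A4 (-1.43), PP2CA (-0.53), HAB1 (-0.48) and the flavonoid glucosyltransferase gene UGT78D2 (-0.40). The rise of AT5G05840 was smaller under drought (-0.83).

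Falls under normal watering that were smaller or not called under drought were those of EXLA1 (1.46), GASA1 (1.43), AT2G27420, a cysteine proteinase gene (0.91), XTH6 (0.79), DELTA-TIP (0.77), XTH24 (0.72), PIP3, which is PIP2;7 (0.59), LOX3 (0.56), TIP2 (0.55), AT5G38430, which is RBCS1B (0.47), AT4G28780, a GDSL lipase gene (0.45), CSD2 (0.44) and BETA-OHASE_1 (0.36). The sign turned for 3 genes that were called in both regimes, PAP17 (1.44), SQD1 (1.09) and AT3G05900, a neurofilament-like gene (0.49).

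The difference from wild type changed with the hour for 6 named genes (edgeR adjusted p of the interaction, 2 libraries a group). AT1G20070 (1.21e-08), EXPA11 (0.000244) and PIP2B (0.0295) are described above. AT4G28780 (0.00064) had 89.4 and 93.0 CPM at ZT8 in aba1-6, against 216 and 209 CPM in wild type, and 126 and 131 CPM at ZT16 in aba1-6, against 117 and 121 CPM in wild type. AT3G05900 (0.00123) had 39.5 and 39.0 CPM at ZT8 in aba1-6, against 95.0 and 72.9 CPM in wild type, and its groups overlapped at ZT1 and ZT16. AT2G27420 (0.00125) had 12.2 and 14.9 CPM at ZT1 in aba1-6, against 56.9 and 51.1 CPM in wild type, and 20.8 and 15.5 CPM at ZT16 in aba1-6, against 20.1 and 20.2 CPM in wild type.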

How the results depend on the processing

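Among the named genes, none of the alternatives run turned the direction of a called value, and turns among other genes were not counted. Against 3231 calls for the average over times, 2172 to 4169 were made by the alternative fits, scalings, filters and tools, and 2528 (without aba1-6 at ZT12, replicate 2) to 3074 when 1 library was left out. Genes called higher numbered 2424 under scaling by library totals alone, 949 with limma and the replicate as a random block, against 1455, and 1126 to 1441 with 1 library left out. Genes called lower numbered 1402 to 1724 with 1 library left out, against 1776. With 1 library left out, single-time calls ran from 249 to 659 at ZT1, from 330 to 852 at ZT8, from 153 to 384 at ZT12 and from 112 to 381 at ZT16, and genes differing between times from 16 to 80. With no filter on low counts, 1068 genes were called at ZT1, 796 at ZT12 and 691 at ZT16, and 418 differed between times. With the 16 compared libraries alone, 215 were called at ZT16 and 15 differed between times. Without the 2 shallowest libraries 69 did. The cause of these shifts was not tested.

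The replicate numbers share only a label across genotypes. A replicate block over all libraries gave 3410 calls for the average and 70 genes differing between times, and a block within each genotype 4169 calls for the average, 1075, 1500, 777 and 768 at the 4 times in order, and 243 differing between times. Of the named genes, 35 lost their call with limma and the random replicate block, and 11 with limma and no block. Each group has 2 libraries at each time, and leaving out 1 leaves a lone library that is assumed to vary like the others.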
